A study of Homo sapiens with 8 samples.

Results

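The genes described here are 6 chemokine receptor genes, CCR1, CCR2, CCRL2, CXCR2, CXCR4 and CX3CR1, out of 63140 genes in the count table. They are a named list, chosen because CCR2 was higher after HOTSCRAMBL knockout and differed between the labelled cell lines. The members were thus selected on the CCR2 values of the knockout and line comparisons, and for these comparisons the values of all 6 genes are given as a description, without a test. The base-editing comparison shares no library with the knockout comparison and is the one tested. Its fit takes in all 8 libraries, however, so the knockout libraries enter its estimate of the spread and its line term. The line comparison also uses the base-editing libraries. For CCR2 the base-editing test is thus not independent of the values that chose the gene. All 6 genes passed the filter on low counts and are among the 24057 genes tested.

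The study recovered RNA by ChIRP, in which biotinylated probes are hybridised to cross-linked, sonicated lysate and captured on beads. It used MOLM13 and OCI-AML4, established human acute myeloid leukaemia lines, collected on day 3 after editing. Cells received Cas9 ribonucleoprotein (KO) or a cytosine base editor (CBE), with guides to the long non-coding RNA HOTSCRAMBL or to AAVS1, the control site of both editors. That gave 4 groups: AAVS1 KO with its edited counterpart HOTSCRAMBL KO, and AAVS1 CBE with HOTSCRAMBL CBE. Each held 1 library labelled MOLM13 and 1 labelled OCI-AML4. The AAVS1 libraries carry the genotype label WT, and the others that of their edit. The cells were edited in bulk by nucleofection, and the share of edited cells is not given in the sources used here. The labels do not name the RNA that the probes target, no unenriched input library was analysed here, and the name tables held no gene called HOTSCRAMBL, so its own level was not analysed. A higher level in these libraries may stand for more RNA in the cells or for more of it in the pull-down, and these cannot be told apart. Nor can fewer cells with a transcript and less transcript per cell.

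Chemokine receptors are G protein-coupled receptors with several membrane-spanning helices that steer leukocytes along gradients of small secreted ligands. They signal through inhibitory G proteins to phospholipase C, phosphoinositide 3-kinase and Rac, and are switched off by receptor kinases, arrestins and regulators of G protein signalling. CCR2, the receptor for CCL2, brings inflammatory monocytes out of bone marrow, and CCR1 binds CCL3 and CCL5. CXCR4, the receptor for CXCL12, holds blood-forming and leukaemic cells in the marrow, and CXCR2, a receptor for CXCL8, draws neutrophils out. CX3CR1 binds fractalkine on endothelium and marks patrolling monocytes, and CCRL2 is an atypical receptor that presents chemerin without classical signalling.

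Library totals ran from 20548300 to 37970163 counts, a ratio of 1.85, with 21945 to 26083 genes detected. The 2 libraries of a group stand for the replicates, and nothing in the labels says how the cultures were separated beyond the line name, so p-values measure only the spread between these libraries. All 12 myeloid leukaemia markers, among them MPO, CD33 and SPI1, were detected, though FCER1G was at 0 in 1 library. Their summed level was 1794 to 2502 CPM per library (CPM is the read count relative to library size, here scaled by the trimmed mean of M values, TMM). The T-cell genes CD3E and CD2, the globin gene HBB and the platelet gene PF4 were at 0 in every library. Only 119 of the 24057 genes, 0.495%, passed the test between the 2 line labels, and the labels were not checked against a library of known origin.

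Of the receptor genes, 3 lie on chromosome 3p21.31 in GRCh38 coordinates: CCR1 (ENSG00000163823, 46201711 to 46208313, minus strand), CCR2 (ENSG00000121807, 46353864 to 46360940, plus strand) and CCRL2 (ENSG00000121797, 46407166 to 46412997, plus strand). CCR1 and CCR2 are 145.6 kb apart, and CCR2 and CCRL2 are 46.2 kb apart. CX3CR1 (ENSG00000168329, 39263495 to 39281735, minus strand) lies on the same chromosome outside that cluster. CXCR4 (ENSG00000121966, 136114349 to 136119177, minus strand) and CXCR2 (ENSG00000180871, 218125289 to 218137251, plus strand) are on chromosome 2. Reads were counted over exons without regard to strand. CCR1 lies inside the span of CCR3 but shares no exonic base with it, and no other annotated gene overlaps the span of the remaining 5 receptors. Receptors of this family share sequence, and how reads that match more than 1 gene were counted is not given in the sources used here.

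The 250 bases before the RefSeq start site (build GRCh38.p14) are shown for the 4 receptors that carried the largest shares of the counts, so that the promoters of genes with similar and with different behaviour can be read side by side. Sequences run 5′ to 3′ on the gene's own strand, and capitals mark matches, on either strand, to the letters searched. These were TGACAG for MEIS homeobox factors, TGATTNAT for HOX proteins with PBX partners, and AGGAAGT for the ETS factor PU.1, a regulator of myeloid genes. TATAAA was searched as the core promoter box of that name. Ensembl's first base of CCR2, 46353864, lies within the CCR2 window, upstream of the RefSeq start. The windows shown for CXCR2 and CXCR4 lie inside the Ensembl spans of those genes. Further windows listed for CXCR4 are not shown.
CCR2 promoter (chr3:46353861-46354110, plus strand): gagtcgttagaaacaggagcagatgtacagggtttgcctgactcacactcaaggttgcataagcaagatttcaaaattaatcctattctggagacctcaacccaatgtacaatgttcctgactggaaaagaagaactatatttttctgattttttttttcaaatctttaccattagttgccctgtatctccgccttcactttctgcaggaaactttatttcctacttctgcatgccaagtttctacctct
CCR1 promoter (chr3:46208314-46208563, minus strand): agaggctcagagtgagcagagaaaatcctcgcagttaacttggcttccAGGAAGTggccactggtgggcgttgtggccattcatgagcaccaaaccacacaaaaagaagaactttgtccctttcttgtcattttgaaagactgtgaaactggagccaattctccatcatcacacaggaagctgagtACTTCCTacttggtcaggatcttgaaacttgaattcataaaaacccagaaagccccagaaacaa
CXCR4 promoter (chr2:136118150-136118399, minus strand): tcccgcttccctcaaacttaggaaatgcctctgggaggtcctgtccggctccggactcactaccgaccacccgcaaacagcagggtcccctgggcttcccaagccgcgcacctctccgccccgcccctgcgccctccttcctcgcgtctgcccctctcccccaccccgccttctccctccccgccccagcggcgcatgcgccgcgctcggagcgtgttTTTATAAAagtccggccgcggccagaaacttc
CXCR2 promoter (chr2:218125778-218126027, plus strand): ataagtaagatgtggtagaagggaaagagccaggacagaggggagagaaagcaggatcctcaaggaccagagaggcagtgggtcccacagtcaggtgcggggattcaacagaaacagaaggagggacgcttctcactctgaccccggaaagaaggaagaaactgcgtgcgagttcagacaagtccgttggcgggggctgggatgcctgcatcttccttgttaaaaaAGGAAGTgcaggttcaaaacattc

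None of the 4 motifs occurs in the CCR2 window, which holds 38.8% G and C. The ETS letters occur on both strands of the CCR1 window, 202 and 64 bases before the start, and once in the CXCR2 window, 24 bases before it. The CXCR4 window, with 68.0% G and C, holds overlapping TATA letters of both strands, the first 32 bases before the start. Over the 11 windows listed for the 6 receptors, ETS letters were present for 4 genes (CCR1, CCRL2, CX3CR1 and CXCR2), TATA letters for 2 (CCRL2 and CXCR4), MEIS letters for CCRL2 and HOX-PBX letters for none. Among all 35116 promoter windows of that length, 7.0% hold the ETS letters, 10.7% the TATA letters, 13% the MEIS letters and 2.5% the HOX-PBX letters. These shares are per window, whereas the receptors are counted per gene, and a gene can have several windows. The counts and the shares are thus not on the same basis. A match describes the letters in a window and no more.

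CCR2 was the most abundant of the receptors in every library and rose with HOTSCRAMBL base editing. In the AAVS1 CBE libraries labelled MOLM13 and OCI-AML4 it stood at 176.2 and 339.9 CPM, and in the HOTSCRAMBL CBE libraries at 345.8 and 607.8 CPM. The higher AAVS1 CBE library came close to the lower HOTSCRAMBL CBE library. Within each label the edited library was higher, by 1.96-fold under MOLM13 and 1.79-fold under OCI-AML4. The group means were 258.1 ± 115.7 and 476.8 ± 185.2 CPM (SD, n = 2). With the line label in the model the log2 fold change was 0.90 (SE 0.1, edgeR quasi-likelihood test, adjusted p = 4.25e-07). The call rests on the line term, and the line difference of CCR2 in these same libraries was part of its choice: without the line label the log2 fold change kept its sign and the edgeR adjusted p was 0.482. Over all 17 alternatives, adjusted p ranged from 1.19e-18 to 0.482.

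After Cas9 knockout, the comparison for which CCR2 was chosen, the gene stood at 224.4 and 344.1 CPM in AAVS1 KO and at 1079 and 1793 CPM in HOTSCRAMBL KO, in the same order of labels. Both HOTSCRAMBL KO libraries lay above every other library, the nearest being the HOTSCRAMBL CBE library labelled OCI-AML4 at 607.8 CPM. The edited library exceeded its control 4.81-fold under the MOLM13 label and 5.21-fold under the OCI-AML4 label, and the fitted log2 fold change was 2.33 (SE 0.101). CCR2 made up 0.0184% to 0.0366% of all counts in the AAVS1 libraries, 0.0329% and 0.0586% in HOTSCRAMBL CBE, and 0.103% and 0.166% in HOTSCRAMBL KO. The log2 effect of HOTSCRAMBL editing was 1.43 larger (SE 0.141) with Cas9 than with the base editor. Whether the effect differed between line labels was not tested.

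**Figure D1:**
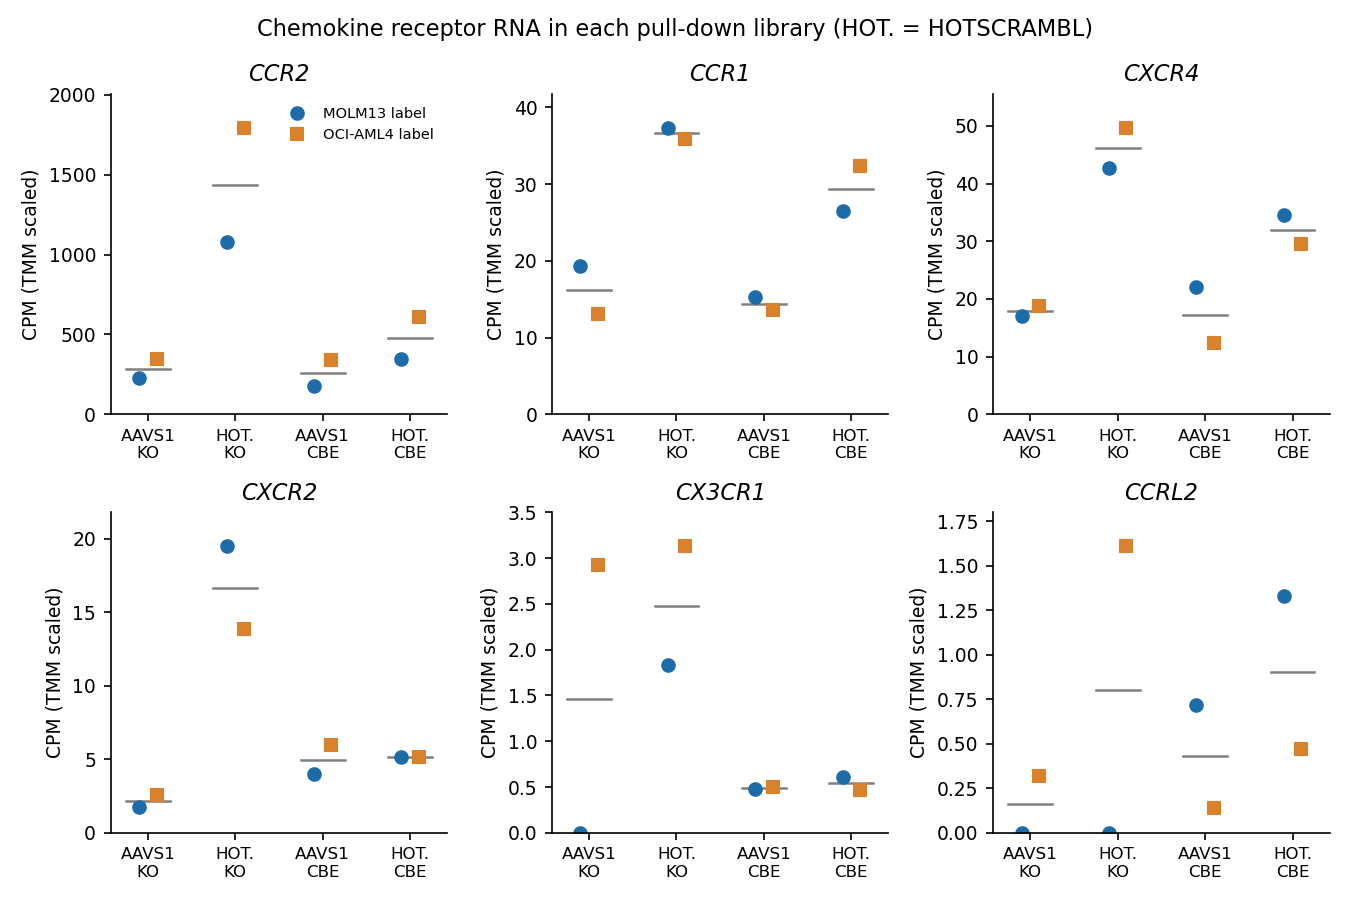
CPM (TMM scaled, linear axes from 0) of each receptor gene in each of the 8 libraries, with circles for the MOLM13 label, squares for the OCI-AML4 label and grey bars for group means. CCR2, CCR1 and CXCR4 are higher in both HOTSCRAMBL groups than in the matching AAVS1 groups, CXCR2 is higher in HOTSCRAMBL KO alone, and CX3CR1 and CCRL2 stay at or below 3.129 CPM.

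CCR1, a receptor of monocytes and neutrophils, also rose with base editing. It stood at 15.3 and 13.53 CPM in AAVS1 CBE and at 26.49 and 32.32 CPM in HOTSCRAMBL CBE (MOLM13 label first). The group means were 14.42 ± 1.252 and 29.41 ± 4.121 CPM (SD, n = 2). The log2 fold change was 1.00 (SE 0.299, edgeR adjusted p = 0.033). Adjusted p ranged from 0.00149 to 0.294 over the 17 alternatives. The call was kept in 7 of them and lost when any 1 of the 8 libraries was left out, without TMM scaling, and in a fit of the 4 CBE libraries alone. In the knockout libraries CCR1 went from 19.29 and 13.12 CPM to 37.34 and 35.89 CPM, a log2 difference of 1.17 (SE 0.312). This was close to its difference with base editing, with 0.17 (SE 0.441) between the editors.

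CXCR4, the marrow-retention receptor, had a similar pattern. Base editing took it from 22.02 and 12.29 CPM in AAVS1 CBE to 34.48 and 29.53 CPM in HOTSCRAMBL CBE. The log2 fold change of 0.88 (SE 0.289) did not pass the test (edgeR adjusted p = 0.0561, and 0.0122 to 0.488 over the alternatives). It passed with DESeq2, with limma-voom and with edgeR's older estimate of the spread. In the knockout libraries CXCR4 was at 16.97 and 18.8 CPM in AAVS1 KO against 42.7 and 49.66 CPM in HOTSCRAMBL KO, a log2 difference of 1.38 (SE 0.299). The effect was 0.50 larger on the log2 scale (SE 0.425) with Cas9 than with the base editor.

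CXCR2, the neutrophil receptor for CXCL8, was high in the HOTSCRAMBL KO libraries and low in the other 6. It was at 1.764 and 2.56 CPM in AAVS1 KO and at 19.49 and 13.86 CPM in HOTSCRAMBL KO, 11-fold and 5.41-fold higher under the 2 labels (log2 difference 2.93, SE 0.585). In AAVS1 CBE it was at 3.99 and 5.97 CPM, and in HOTSCRAMBL CBE at 5.155 and 5.158 CPM. The base-editing groups overlapped, the 2 labels moved in opposite directions (1.29-fold and 0.864-fold), and the log2 fold change was 0.07 (SE 0.559, edgeR adjusted p = 0.967). The log2 difference between the editors' effects was 2.87 (SE 0.851). The raw counts behind these values ran from 45 to 382.

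CX3CR1 and CCRL2 were the least abundant of the 6. CX3CR1, the fractalkine receptor, was at 0 and 2.92 CPM in AAVS1 KO and at 1.836 and 3.129 CPM in HOTSCRAMBL KO. In AAVS1 CBE it was at 0.48 and 0.4946 CPM, and in HOTSCRAMBL CBE at 0.6097 and 0.4724 CPM. The 0 allows up to 0.1176 CPM, the value of 3 counts in that library, and this floor covers counting error only and is higher if both mates of each pair were counted. The log2 fold change with base editing was 0.24 (SE 1.62, edgeR adjusted p = 0.959). CCRL2, the chemerin-presenting receptor, had 0 to 48 counts per library, all even numbers. It was at 0 and 0.32 CPM in AAVS1 KO, 0 and 1.609 CPM in HOTSCRAMBL KO, 0.7201 and 0.1413 CPM in AAVS1 CBE and 1.33 and 0.4724 CPM in HOTSCRAMBL CBE. Its log2 fold change with base editing was 1.09 (SE 1.53, edgeR adjusted p = 0.751). For both genes the standard error exceeded the base-editing difference, and neither passed that test.

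Of the 6 receptors, 2 (CCR2 and CCR1) passed the base-editing test, both higher, where 4.56% of all tested genes passed as higher, 4.27% as lower and 8.83% in either direction. The median log2 fold change of the 6 was 0.89, against −0.02 for all tested genes. This count and median include CCR2, whose line difference in these libraries was part of its choice, so they are not independent of it. CCR1 kept its base-editing call in 7 of 17 alternatives. With knockout, 4 of the 6 (CCR2, CCR1, CXCR4 and CXCR2) met the same threshold as higher, where 4.51% of all genes were higher, 4.25% lower and 8.76% either. Nothing is read from that count, because the comparison chose the genes. The median there was 1.85, against −0.01. Over 17 alternatives CXCR4 and CXCR2 met the threshold in 14 each and CCR1 in 12, and without the AAVS1 KO library labelled MOLM13 only CCR2 met it. The difference between the editors' effects is built from the same knockout values, and nothing is read from it either: CCR2 alone met the threshold, as higher, where 1.74% of all genes did and 3.19% did in either direction. CCR2 lost its place in all 3 comparisons in the model with no line term.

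The 2 editors at the control site gave no called difference. Of the 24057 genes, 0 (0%) passed edgeR's test between AAVS1 KO and AAVS1 CBE, 918 had an unadjusted p under 0.05, and DESeq2 called 35. None of the 6 receptors passed with either tool, and none had an unadjusted p under 0.05. CCR2 differed by 0.17 (SE 0.104) on the log2 scale, CCR1 by 0.17 (SE 0.35) and CXCR4 by 0.04 (SE 0.339). CXCR2 was lower in AAVS1 KO by a wider and less certain margin, −1.18 (SE 0.728).

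**Figure D2:**
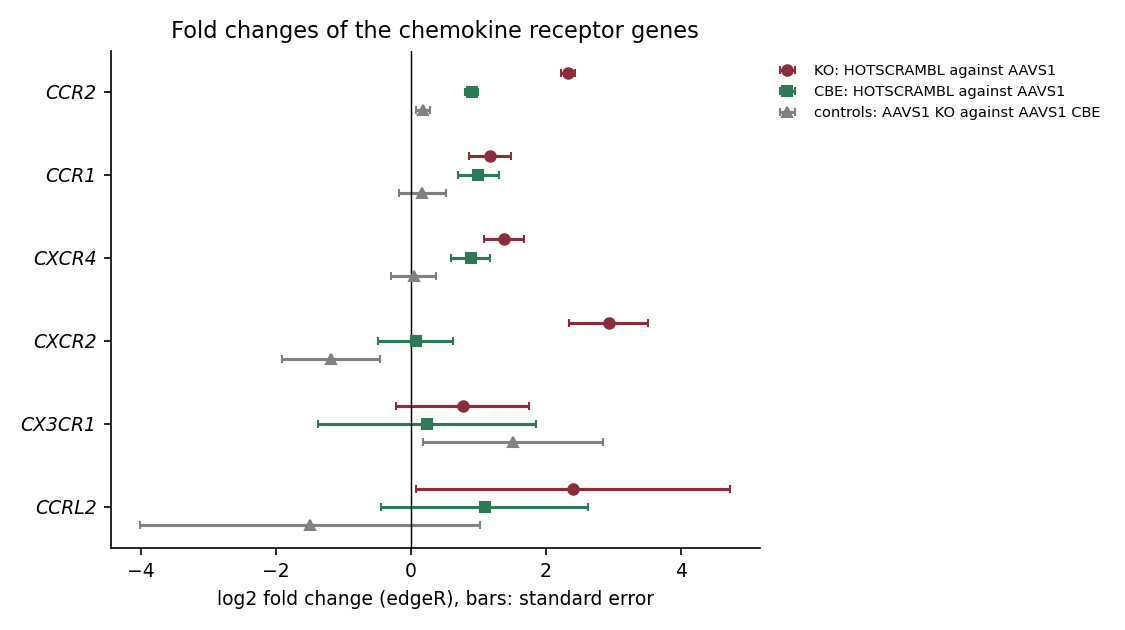
Log2 fold changes from edgeR of each receptor with knockout (circles), with base editing (squares) and between the AAVS1 controls of the 2 editors (triangles), with standard errors as bars. CCR2 reaches 2.33 with knockout and 0.90 with base editing, CXCR2 reaches 2.93 and 0.07, and the bars of CX3CR1 and CCRL2 are the widest.

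CCR2 also differed between the line labels, as its choice required. It was higher under the OCI-AML4 label in all 4 groups, 1.53-fold in AAVS1 KO, 1.66-fold in HOTSCRAMBL KO, 1.93-fold in AAVS1 CBE and 1.76-fold in HOTSCRAMBL CBE. The fitted log2 difference, MOLM13 minus OCI-AML4, was −0.78 (SE 0.0701). The other receptors showed no such constancy. CCR1 was lower under the OCI-AML4 label in 3 groups (0.68-fold to 0.961-fold) and higher in HOTSCRAMBL CBE (1.22-fold), CXCR4 was higher in the KO groups and lower in the CBE groups, and CXCR2 ranged from 0.711-fold to 1.5-fold. CCR2 was the only 1 of the 6 past the threshold between labels, where 0.258% of all genes were lower under the MOLM13 label and 0.495% differed in either direction. Line label and replicate number coincide in every group and cannot be told apart.

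**Figure D3:**
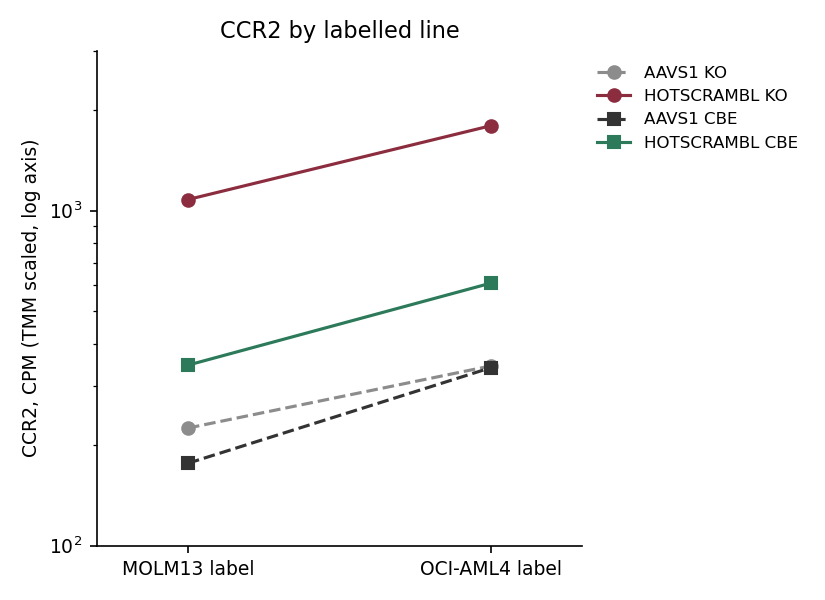
CCR2 in CPM (TMM scaled, log axis) under the MOLM13 and OCI-AML4 labels, with 1 line for each group (AAVS1 dashed, HOTSCRAMBL solid). All 4 lines climb toward the OCI-AML4 label, from 1079 to 1793 CPM at the top and from 176.2 to 339.9 CPM at the bottom.

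Per kilobase of exon, CCR2 far exceeded the other receptors. Its level averaged 158.5 CPM per kb over the 8 libraries (45.5 to 462.9) and 70.01 ± 21.72 CPM per kb in the 4 AAVS1 libraries (SD). CXCR4 and CCR1 came next in the AAVS1 libraries with 6.038 ± 1.4 and 5.786 ± 1.064 CPM per kb, which do not differ beyond their spread. CXCR2 followed with 1.111 ± 0.5743, CX3CR1 with 0.2663 ± 0.3604 and CCRL2 with 0.09874 ± 0.1043 CPM per kb, and the last pair do not differ beyond their spread either. CCR2 supplied 80.6% to 94.5% of the summed CPM of the 6 genes in each library. In rank among all tested genes its level lay between the percentiles 97.58 and 99.71, that of CXCR4 between 63.89 and 90.41, that of CCR1 between 67.93 and 87.84 and that of CXCR2 between 28.6 and 71.97.

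Across the 8 libraries, the log2 level of CCR2 had a Pearson correlation of 0.84 with CXCR2, 0.79 with CCR1, 0.77 with CXCR4, 0.68 with CX3CR1 and 0.24 with CCRL2. These are descriptions over libraries that share groups and line labels. Among 12028 genes above the median level, the 5 with the pattern most like that of CCR2 were RPS6KB1 (r = 0.985), EOLA2-DT (0.985), ENSG00000227066 (0.981), KIAA0930 (0.979) and ADIPOR1 (0.978). RPS6KB1, which encodes the ribosomal S6 kinase, averaged 253.9 CPM in AAVS1 KO, 482.4 in HOTSCRAMBL KO, 257.4 in AAVS1 CBE and 301 in HOTSCRAMBL CBE. ADIPOR1, an adiponectin receptor gene, averaged 35.75, 86.85, 39.76 and 48.2 CPM in the same groups. Their chromosomes, 17 and 1, are not that of CCR2.

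Other chemokine receptors were scarce. Of 16 further receptor genes, 12 had a count in some library and 7 passed the filter. With either edit 0 of the 7 passed edgeR's test, where 8.83% of all tested genes did with base editing and 8.76% with knockout. With base editing 1 of the 7 had an unadjusted p under 0.05 and DESeq2 called 1, and with knockout both counts were 0. CXCR6, a receptor of tissue-resident T cells encoded at 3p21.31, was the most abundant of them, with means of 11.13 and 11.51 CPM in AAVS1 KO and HOTSCRAMBL KO and of 11.12 and 11.6 CPM in the matching CBE groups. Its log2 fold change was 0.03 (SE 0.475) with knockout and 0.06 (SE 0.413) with base editing. CXCR1, the closest relative of CXCR2, was at 0 in 7 libraries and at 0.16 CPM in the remaining 1.

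Of 23 ligand genes of these receptors, 13 had a count and 6 were tested. CCL5, a ligand of CCR1, rose with base editing from 45.23 ± 9.826 to 81.3 ± 9.303 CPM (log2 fold change 0.89, standard error 0.212, edgeR's adjusted p = 0.00653). With knockout it was at 29.16 ± 8.255 and 30.73 ± 12.23 CPM (log2 fold change 0.09, SE 0.298), and the difference between editors did not pass (adjusted p = 0.314). CXCL8, a ligand of CXCR2, rose with knockout from 12.28 ± 3.059 to 37.09 ± 0.4276 CPM (log2 fold change 1.60, standard error 0.328, edgeR's adjusted p = 0.00156). With base editing it was at 10.2 ± 0.9351 and 17.26 ± 1.579 CPM, which did not pass (log2 fold change 0.77, SE 0.354, adjusted p = 0.219). CXCL12, the ligand of CXCR4, was at 0 in 7 libraries, and CCL2, the main ligand of CCR2, did not exceed 1.073 CPM. CCL5 lost its call when either AAVS1 CBE library, or the HOTSCRAMBL CBE library labelled MOLM13, was left out, and CXCL8 when the AAVS1 KO library labelled MOLM13 was. Each also lost its call in the fit of the 4 libraries of its own comparison.

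All 22 signalling genes downstream of the receptors were tested. With base editing 5 were higher and 6 lower, where 4.56% and 4.27% of all tested genes were. Their median log2 fold change was 0.15, against −0.02 for all tested genes. With knockout 2 were higher and 4 lower, where 4.51% and 4.25% of all tested genes were. The median there was 0.18, against −0.01. Leaving out the line label took the knockout count from 6 to 1. GNB1, a G protein beta subunit, rose with both edits, from 222.6 ± 1.891 to 440.7 ± 69.19 CPM with knockout (log2 fold change 0.98, standard error 0.12, edgeR's adjusted p = 1.67e-06) and from 223.4 ± 54.85 to 370.8 ± 24.54 CPM with base editing (0.75, SE 0.117, adjusted p = 6.67e-05). Its base-editing call was lost in a fit of the 4 CBE libraries alone. PLCB2, the phospholipase C of blood cells that these receptors activate, fell with base editing from 618.9 ± 95.12 to 233.6 ± 3.626 CPM (log2 fold change −1.40, SE 0.108, adjusted p = 7.54e-10). With knockout its log2 fold change was −0.36 (SE 0.104, adjusted p = 0.0295), and that call held in 8 of 17 alternatives.

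With base editing the Src-family kinase gene FYN rose from 32.12 ± 5.08 to 74.8 ± 7.799 CPM (log2 fold change 1.22, standard error 0.221, edgeR's adjusted p = 0.000418), and RAC2, the Rac GTPase of blood cells, from 85.6 ± 10.95 to 150.4 ± 7.494 CPM (0.82, SE 0.15, adjusted p = 0.000465). Each lost its call without 1 library labelled MOLM13, that of AAVS1 CBE for FYN and that of HOTSCRAMBL CBE for RAC2. With knockout the kinase gene PTK2B fell (log2 fold change −0.33, SE 0.0898, adjusted p = 0.0182) and LYN rose (0.47, SE 0.135, adjusted p = 0.0261). Both calls were lost without the line label and in the fit of the 4 KO libraries alone. That of LYN, kept in 10 of 17 alternatives, was also lost without TMM and without any 1 of the 4 KO libraries. That of PTK2B, kept in 12, was also lost without either AAVS1 KO library or the HOTSCRAMBL KO library labelled MOLM13. PTK2B fell with base editing too (log2 fold change −0.43, SE 0.0888, edgeR's adjusted p = 0.00176), a call kept in 14 of 17 alternatives. LYN did not pass with base editing (0.05, SE 0.129, adjusted p = 0.869).

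Among 16 genes of receptor desensitisation and turnover, all tested, 3 were higher and 2 lower with base editing and 4 were higher and 2 lower with knockout. Of all tested genes, 8.83% were called with base editing and 8.76% with knockout. The medians of the 16 genes were 0.22 and −0.28, against −0.02 and −0.01 for all tested genes. The 2 receptor kinase genes named here moved in opposite directions. GRK3 rose from 67.5 ± 5.163 to 174.8 ± 33.89 CPM with knockout (log2 fold change 1.38, standard error 0.166, edgeR's adjusted p = 1.31e-06) and from 66.03 ± 5.192 to 118.1 ± 2.872 CPM with base editing (0.84, SE 0.162, adjusted p = 0.000901). GRK2, the kinase known for desensitising CXCR4 and CCR2, fell from 646.4 ± 45.85 to 439.8 ± 17.21 CPM with knockout (−0.56, SE 0.0977, adjusted p = 0.000273) and from 657.5 ± 31.79 to 513.5 ± 2.027 CPM with base editing (−0.36, SE 0.0946, adjusted p = 0.015), the latter lost without the line label and without any 1 of the 4 CBE libraries. The base-editing call of GRK3 was lost without the AAVS1 CBE library labelled OCI-AML4 or the HOTSCRAMBL CBE library labelled MOLM13, within a log2 range of 0.68 to 1.02 over all alternatives, and the knockout call of GRK2 without the AAVS1 KO library labelled OCI-AML4, within −0.72 to −0.44. In a fit of the 4 CBE libraries alone, the base-editing calls of GRK3 and GRK2 were both lost.

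The regulators of G protein signalling differed in pattern. RGS16 rose with both edits, from 26.35 ± 10.71 to 68.93 ± 5.362 CPM with knockout (log2 fold change 1.40, standard error 0.244, edgeR's adjusted p = 0.000258) and from 22.39 ± 8.249 to 53.99 ± 14.46 CPM with base editing (1.28, SE 0.24, adjusted p = 0.000621), the latter lost without the AAVS1 CBE library labelled MOLM13. RGS2 rose with knockout from 3.343 ± 0.3722 to 36.31 ± 1.363 CPM (3.45, SE 0.467, adjusted p = 7.68e-06). It was at 1.909 ± 1.501 and 2.316 ± 2.329 CPM in the base-editing groups, and the difference between the editors' effects, 3.08 (SE 1.09), did not pass (adjusted p = 0.149). HGS, which sorts internalised receptors to lysosomes, fell with base editing from 278.2 ± 29.85 to 160.3 ± 5.121 CPM (−0.80, SE 0.122, adjusted p = 4.81e-05). It also fell with knockout, from 277.5 ± 33.11 to 192.4 ± 5.233 CPM (−0.52, SE 0.125, adjusted p = 0.00662), a call kept in 13 of 17 alternatives. For HGS the difference between the editors' effects did not pass (adjusted p = 0.519).

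Among genes next to the 3p21.31 receptors, FYCO1, an autophagosome transport gene, fell with both edits. Of 16 neighbouring genes, some of them receptors counted above, 9 were tested, and FYCO1 was the only 1 called in each comparison, where 8.76% of all tested genes were called with knockout and 8.83% with base editing. It fell from 172.9 ± 36.25 to 105.1 ± 21.43 CPM with knockout (log2 fold change −0.72, standard error 0.159, edgeR's adjusted p = 0.00327) and from 179.1 ± 38.41 to 113.5 ± 8.009 CPM with base editing (−0.66, SE 0.147, adjusted p = 0.00357), opposite in direction to CCR1 and CCR2. Both calls held in 14 of 17 alternatives. They were lost without the AAVS1 library or the HOTSCRAMBL library labelled MOLM13 of the editor concerned. The knockout call was also lost without the HOTSCRAMBL library labelled OCI-AML4, and the base-editing call in a fit of the 4 CBE libraries alone. Over all alternatives the log2 fold change ran from −0.93 to −0.36 with base editing and from −0.88 to −0.62 with knockout. Overlap with other annotated genes was examined for the 6 receptors only, and FYCO1 spans CXCR6. Of 15 receptors for other leukocyte attractants 10 were tested, and 1 was called with knockout. LTB4R, the leukotriene B4 receptor, fell with knockout from 72.69 ± 7.897 to 39.56 ± 7.326 CPM (−0.88, SE 0.208, adjusted p = 0.00589). It lost that call without any 1 of the 4 KO libraries and in a fit of those 4 alone. With base editing 0 of the 10 passed edgeR's test, 0 had an unadjusted p under 0.05, and DESeq2 called 0.

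**Figure D4:**
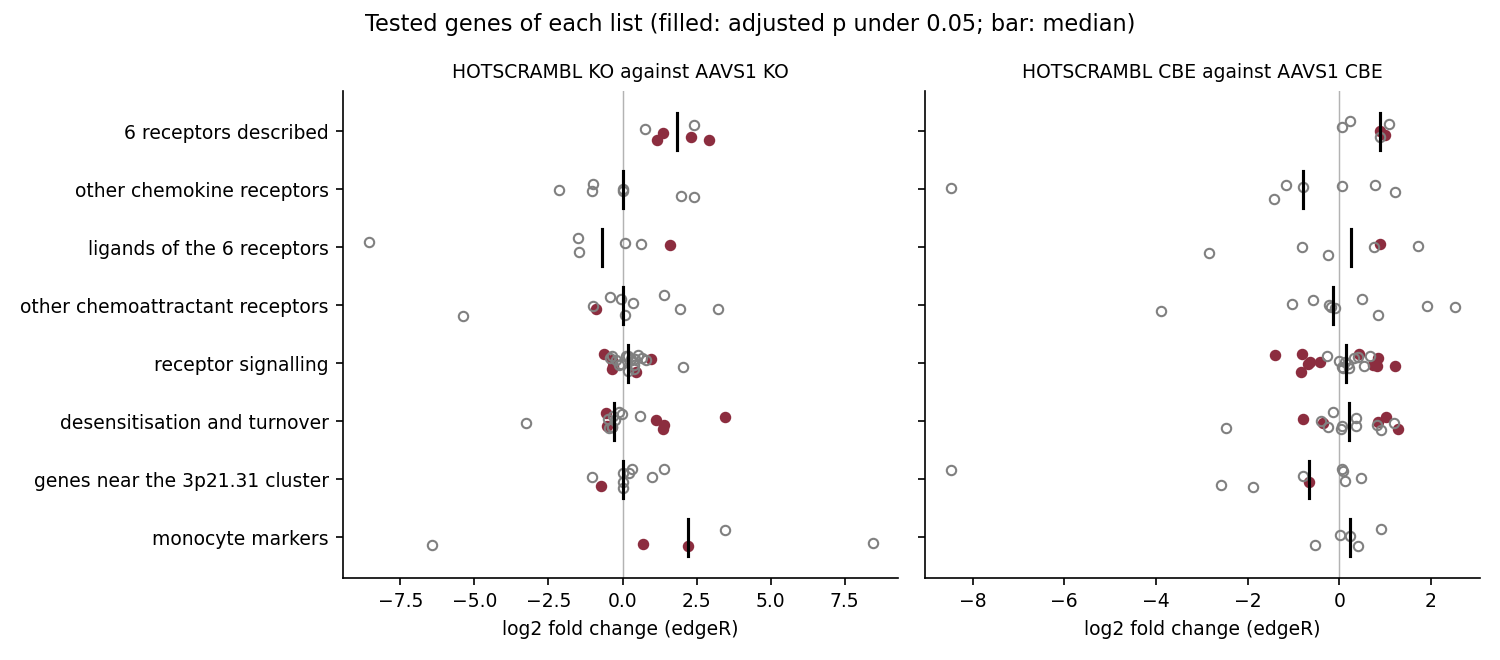
Log2 fold changes of the tested genes of each list with knockout (left) and base editing (right). Filled points passed an edgeR adjusted p of 0.05, for the 6 receptors in the left panel as a description only, and black bars are medians. The receptors' median is 1.85 on the left and 0.89 on the right, and that of the monocyte markers is 2.20 and 0.23.

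Of the monocyte markers, LYZ and CSF1R rose with knockout. The summed level of the 7 markers was 192.8 to 202.5 CPM in AAVS1 KO and 599.6 to 831.5 CPM in HOTSCRAMBL KO, against 190.8 to 222.1 CPM in AAVS1 CBE and 192 to 219.2 CPM in HOTSCRAMBL CBE, and most of it was LYZ. Of the 5 tested, 2 passed with knockout, where 8.76% of all tested genes did. These were LYZ, the lysozyme gene (130.5 ± 14.85 to 604 ± 138.6 CPM, log2 fold change 2.20, standard error 0.125, edgeR's adjusted p = 9.41e-13), and CSF1R, the M-CSF receptor gene (0.69, SE 0.192, adjusted p = 0.0227). CSF1R kept its call in 10 of 17 alternatives, with a log2 fold change of 0.41 to 0.98, and lost it without any 1 of 5 libraries. With base editing 0 of the 5 passed edgeR's test, 1 had an unadjusted p under 0.05 and DESeq2 called 1. The 1 under 0.05 was CSF1R, which moved down, opposite to its change with knockout. Its mean went from 75.85 ± 2.893 to 53.52 ± 14.35 CPM with base editing, or −0.53 on the log2 scale (SE 0.193, edgeR adjusted p = 0.0927). The other 3 tested did not pass with knockout: VCAN was at 0 in AAVS1 KO and 1.691 ± 0.4946 CPM in HOTSCRAMBL KO, FCN1 was at 0.4128 ± 0.4141 CPM and 0, and CD14 was at 0.196 ± 0.2772 and 2.214 ± 0.5346 CPM. CD14 was at 0 in 5 libraries and did not exceed 2.592 CPM, and FCGR3A was at 0 in all 8.

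The summed neutrophil markers lay between 2805 and 3388 CPM in all groups, with FCGR3B and MMP8 at 0 throughout, and overlapped between edited and control libraries. Within that list, 3 of the 4 tested genes were called with knockout, where 8.76% of all tested genes were. AZU1 and ELANE, granule protein genes, fell by 0.89 (SE 0.0892) and 0.57 (SE 0.13) on the log2 scale, and PRTN3, another, rose by 0.46. ELANE lost its call without either KO library labelled OCI-AML4, PRTN3 without the AAVS1 KO library labelled MOLM13, and both without the line label. ELANE also lost it in a fit of the 4 KO libraries alone. Lymphoid markers summed to 22.8 to 29.55 CPM in AAVS1 KO and 41.11 to 41.57 CPM in HOTSCRAMBL KO, and to 24.72 to 27.13 and 25.05 to 38.19 CPM in the CBE groups. Epithelial and stromal markers ranged from 99.15 to 102.1 CPM in AAVS1 KO, 148.3 to 181.2 in HOTSCRAMBL KO, 93.44 to 95.47 in AAVS1 CBE and 105.3 to 112.5 in HOTSCRAMBL CBE. Most of this was PECAM1, which leukocytes also express. Erythroid and megakaryocyte markers did not exceed 4.946 CPM in sum. The part of any of these in the receptors' values was not tested.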

How the data were processed

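RNA was counted in 8 ChIRP libraries, 2 in each of 4 groups taken from the sample titles. The authors deposited 1 table of raw read counts for 63140 Ensembl genes, made with featureCounts 2.0.6 on GRCh38 per the submitters' processing notes and with annotation 112 and without strand per the file headers. Among values from 1 to 20, 71.8% to 74.9% are even, as when both mates of a pair are counted. The aligner is not given in the sources used here. A name was found for 99.05% of genes, and 2 records broken over lines were rejoined.

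From the counts, edgeR 4.0.16 (R 4.3.3) kept 24057 genes (filterByExpr, minimum count 10), scaled by TMM, and fitted group and line label over all 8 libraries with robust quasi-likelihood, leaving 3 residual degrees of freedom. P-values were adjusted by Benjamini-Hochberg over all tested genes, with a threshold of 0.05. Standard errors are the log2 fold change divided by the root of F. CPM are TMM scaled, and correlations used log2 of CPM plus 0.5. The script was tested on simulated data. Replicate 1 is MOLM13 and replicate 2 is OCI-AML4 throughout, so the pairing comes from the stated line. Deviations of paired libraries correlated at 0.0154 to 0.0411 over tested genes and at 0.0424 to 0.123 over those above the median level. Within groups, chi-square per degree of freedom was 35.7 to 42.8, so no library was treated as a repeat.

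The members and all gene lists (other chemokine receptors, ligands, signalling, desensitisation and turnover, other attractant receptors, 3p21.31 neighbours, and markers of myeloid leukaemia, monocytes, neutrophils, lymphoid, erythroid and megakaryocyte, and epithelial and stromal cells) were chosen with earlier results of these data known. One gene of the marker lists is not reported here and enters no count, sum or median of a list. Named were all members, up to 4 genes per non-marker list and comparison with the smallest p past the threshold, marker genes as levels, and the 5 genes most correlated with CCR2. CXCR6, CXCR1, CXCL12 and CCL2 were named in addition, as levels, after their values were seen. Alternatives were DESeq2 1.42.0, limma-voom (limma 3.58.1), other scalings and filters, halved counts, no line term, only the libraries compared, each library left out and, chosen after seeing the data, edgeR's older estimate of the spread.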

Additional observations from a re-analysis of the deposited data

Results flagged for a closer look

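In 7 of the 100 genes looked at, the 6 receptors and the tested genes of the lists, the log2 effect of HOTSCRAMBL editing differed between Cas9 and the base editor by edgeR's test of that difference, which 3.19% of all 24057 genes passed. The 7 include CCR2, and the lists were chosen with earlier results known. For CCR2 the difference, KO effect minus CBE effect, was 1.43, given as a description because the knockout comparison chose the gene. Among monocyte markers it was 1.97 for LYZ (edgeR adjusted p = 8.25e-08) and 1.22 for CSF1R (adjusted p = 0.0093), both larger with knockout. Among neutrophil granule genes it was −0.72 for AZU1 (adjusted p = 0.000706) and −0.64 for ELANE (adjusted p = 0.042). Among signalling genes it was 1.04 for PLCB2 (adjusted p = 7.28e-05), which fell further with base editing, and −1.65 for FYN (adjusted p = 0.00778). LYZ, AZU1 and PLCB2 passed in all 16 alternatives run for this difference. CSF1R passed in 11, FYN in 9, and ELANE in 6, their losses falling mostly among the fits with 1 library left out. Single outlying libraries were not searched for within groups of 2.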

How the results depend on the processing

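The log2 fold change of CCR2 kept its sign in all alternatives of every comparison, between 0.76 and 1.02 with base editing. The pairing of libraries by line label mattered most for its call: without the replicate block, CCR2 was not called with either edit or between editors, the receptors called with base editing fell from 2 to 1, and the genes differing between editors from 767 to 503. Receptors called with base editing were also 1 without TMM, 1 in the fit of the 4 CBE libraries alone and 1 to 1 with a library left out. Receptors called with knockout were 1 in the fit of the 4 KO libraries alone and 1 to 4 with a library left out.

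Over all genes, base editing gave 2124 calls, 528 from its own 4 libraries, 3438 with DESeq2 and 579 to 1935 with a library left out. Knockout gave 2108, 661, 4231 and 701 to 1679. DESeq2 gave 2275 differences between editors, 35 between controls and 778 between labels, against 193 with the older edgeR estimate and 265 with limma-voom there. Leaving out a library gave 234 to 370 differences between editors and 26 to 58 between labels. Without TMM the median of all genes moved to −0.17 with knockout and −0.15 with base editing, and the share of higher calls fell to 840 of 2535 and 782 of 2398.

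Signs turned only where a receptor had no call. With base editing CXCR2 was −0.07 without TMM, and with a library left out CCRL2 ranged from −0.40 to 3.01, CXCR2 from −0.34 to 0.46 and CX3CR1 from −0.68 to 1.23. Between controls CX3CR1 was −0.065 with limma-voom, and with a library left out CX3CR1 ranged from −6.54 to 2.37, CCRL2 from −6.74 to 0.38, CCR1 from −0.17 to 0.44 and CXCR4 from −0.32 to 0.56. With counts halved, the base-editing log2 fold changes of CCRL2 and CX3CR1 were 1.08 and 0.24, also with no call. The causes of these changes were not tested.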
